A study of Homo sapiens with 17 samples.

Results

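Cyclins are the regulatory subunits that switch on cyclin-dependent kinases (CDKs), and their levels decide which step of the cell cycle a cell can take. The genes described here are the cyclins CCND1, CCND3, CCNE1, CCNE2, CCNA2, CCNB1 and CCNB2 and the kinases CDK4, CDK2 and CDK1. These 10 genes were chosen by name as the core of cell cycle control, because a shift in their footprints or mRNA would be a sign of arrest after a DNA break. Each gene was represented by its most counted transcript at the given time. All 10 were found, of 15660 genes with a count at 36 h and of 17023 at 72 h, and all 10 had a mean count of at least 20 in both library types, the condition for a test that 9016 and 10896 genes met.

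The cells were HEK293, a human embryonic kidney line that carries viral early proteins able to bind RB and p53, which limits it as a model of checkpoint arrest. They were electroporated with a ribonucleoprotein of Cas9, which cuts an intron of JAK2, or of dCas9, which binds the same site without cutting it. The labels give 300 pmol of protein and 300 pmol of guide, and every group received the same guide target, so the controls were electroporated too. Several electroporations of a plate were pooled into 1 replicate. Ribosome footprints and mRNA were sequenced at 36 h (2 Cas9 and 2 dCas9 footprint libraries, 3 Cas9 and 2 dCas9 mRNA libraries) and at 72 h (2 libraries for each nuclease and library type), 17 libraries in all. At 72 h the Cas9 footprints are titled rcas9, so these libraries were assigned to Cas9 by their treatment label. Guide synthesis, aligner and annotation differed between the time points and cannot be told apart from time. The labels do not say that replicates came from separate cultures on separate days, so p-values measure the spread between these libraries.

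Depth over the tested genes was 24406359 to 42472443 counts in the mRNA libraries, 3165313 to 8813652 in the footprints at 72 h and 678503 to 4794676 in the footprints at 36 h. Footprints of dCas9 replicate e at 36 h were the shallowest library, and CCNE2 had 0 counts there. As a check of the cell line, 4 to 6 of 6 HEK293-expressed markers had counts in every library, with a summed level of 659 to 2456 CPM (counts scaled to a common library size). VIM alone gave 595 to 2300 CPM of this, and KRT18 gave 50.8 to 139 CPM. The others were within the range of the markers of the other lists: NEFM (at most 25.1 CPM), LHX1 (at most 11.9 CPM), KRT8 (at most 9.74 CPM) and PAX2 (at most 2.01 CPM). Of those other markers, COL1A1 reached 26.1 CPM. The 8 blood markers summed to at most 4.86 CPM and the 5 skin and fibroblast markers to at most 26.7 CPM.

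In a dividing cell, D-type cyclins with CDK4 start the phosphorylation of RB in G1, and E-type cyclins with CDK2 complete it and open S phase. Cyclin A2 acts with CDK2 and CDK1 through S phase and G2, and B-type cyclins with CDK1 drive mitosis. After a double-strand break, p53 and its target CDKN1A (p21) hold CDKs inactive, and transcripts of the mitotic genes fall when the arrest lasts. The promoters of mitotic genes carry CCAAT boxes and a cell cycle genes homology region (CHR), through which repressor complexes act.

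Promoter sequences are shown for CCNA2, CCNB1 and CCNB2. The mRNA estimates of these cyclins shared a sign at 72 h, given further on, and their proximal promoters lie outside annotated transcripts. CCNE1 met both conditions too, as did CDK1 with its window at chr10:60778181-60778330. Neither is printed, so the printed genes are a selection. The printed sequences are RefSeq sequences on GRCh38.p14, at most 150 bases before the start, cut where a GENCODE transcript begins. Capitals mark CCAAT or its reverse complement, and TTTGAA, the letters searched for the CHR, on either strand. CCNA2 is shown at chr4:121823884-121824033 (minus strand), CCNB1 at chr5:69167000-69167134 (plus strand) and CCNB2 at chr15:59104996-59105125 (plus strand).
CCNA2: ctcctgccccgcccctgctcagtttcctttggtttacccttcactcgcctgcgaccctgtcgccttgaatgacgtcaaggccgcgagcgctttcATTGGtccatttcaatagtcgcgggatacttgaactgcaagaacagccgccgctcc
CCNB1: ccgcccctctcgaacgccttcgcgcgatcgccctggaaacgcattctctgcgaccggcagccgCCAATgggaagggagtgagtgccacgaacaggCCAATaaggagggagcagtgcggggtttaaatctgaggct
CCNB2: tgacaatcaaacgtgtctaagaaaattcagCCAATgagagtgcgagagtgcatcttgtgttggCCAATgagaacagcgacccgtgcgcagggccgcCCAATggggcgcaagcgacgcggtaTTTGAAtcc
CCNB2 held 3 CCAAT boxes and 1 CHR match, CCNB1 held 2 CCAAT boxes and CCNA2 held 1. Only the exact letters were searched, so a sequence without a match can still hold a variant form of the motif. The 150 bases before the start of the counted CDK1 transcript held 2 of each and are not printed, because they are exon in other CDK1 transcripts. The other CDK1 window, at chr10:60778181-60778330, held 1 CCAAT box and no CHR match. Among all 35116 promoter windows of this length, 23.5% held CCAAT, 7.33% held TTTGAA and 1.94% held both. CCAAT occurred 2 or more times in 5.97% of them. Of the G1 and S phase genes, CCND3 had 3 windows, 2 of them with 1 CCAAT box each, and neither motif was found in the CCNE1 or CDK4 window. The sequence tables held entries for 7 of the 10 genes, and CCND1, CDK2 and CCNE2 were not among them. A match of letters says nothing of binding in these cells.

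Levels per length of the counted coding part set CCNB1, CDK1 and CDK4 at the top and the E cyclins at the bottom, with CCNB2 in between (rank 7 of 10 in footprints at both times). CCNB1 footprints were 366 ± 38.9 CPM per kb at 36 h (SD over 4 libraries) and 356 ± 18.0 at 72 h. This was the highest mean of the 10 genes at both times, and its range overlapped that of CDK1 footprints, 295 ± 69.0 and 344 ± 31.4 CPM per kb. In mRNA, CDK4 led at 36 h with 309 ± 18.7 CPM per kb (5 libraries), with a range that overlapped CCNB1 at 287 ± 11.9. At 72 h CCNB1 mRNA led with 357 ± 39.0 CPM per kb (4 libraries) and lay wholly above CDK4 at 271 ± 12.3. CCNE1 and CCNE2 were lowest at both times in both library types, at 12.0 to 26.9 CPM per kb on average, and their ranges overlapped each other and, in mRNA, CCNE1 overlapped CCND3. Among all tested genes, CCNB1 footprints stood at percentile 94.4 at 36 h and 95.4 at 72 h, and CCNE1 footprints at 32.4 and 38.2.

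**Figure D1:**
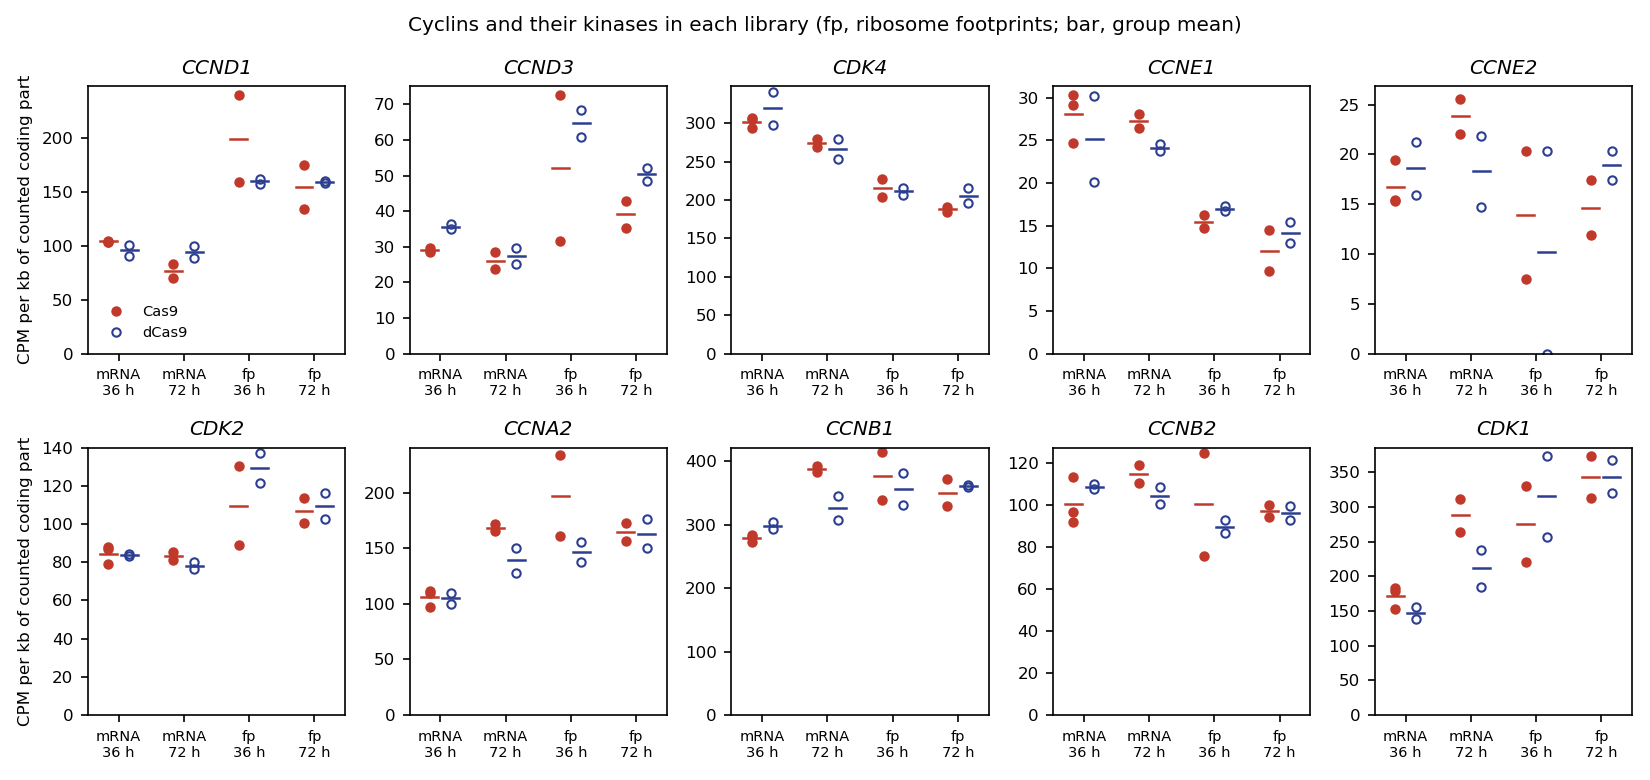
Normalised level of each gene in each of the 17 libraries, in CPM per kb of counted coding part, with mRNA and ribosome footprints (fp) at 36 and 72 h on the x axis. Filled points are Cas9 libraries, open points dCas9 libraries and short bars group means; at 72 h the Cas9 points of CDK1, CCNA2 and CCNB1 mRNA lie above the dCas9 points, while their footprint points overlap.

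None of the 10 genes passed the test in any comparison of Cas9 with dCas9 (edgeR, adjusted p under 0.1). Over all tested genes the called share at 36 h was 0% in footprints and 0.0222% in mRNA. At 72 h it was 0.0367% in footprints and 2.69% in mRNA. For translational efficiency, the change in footprints beyond the change in mRNA, it was 0% at 36 h and 0.716% at 72 h. At an unadjusted p under 0.05, 2 of the 10 passed in mRNA at 72 h (all tested genes 14.8%), 1 in footprints at 72 h (3.84%), 1 in mRNA at 36 h (4.68%) and 0 in footprints at 36 h (2.09%). For translational efficiency it was 3 at 72 h (11.2%) and 0 at 36 h (6.30%). Run on the same genes, DESeq2 called none of the 10 in any of these 6 comparisons.

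The mRNA of the kinase and cyclins of mitosis lay higher with Cas9 at 72 h in every pair of libraries, as did that of 24.4% of all tested genes, and none of the 3 passed the test. Their footprints overlapped between the groups. CDK1 (chr10:60778331-60794852) encodes the kinase that starts mitosis. Its mRNA was at 259 and 221 CPM in the Cas9 libraries at 72 h and at 154 and 198 CPM in the dCas9 libraries. Both Cas9 values lay above both dCas9 values, and the dCas9 libraries also differed from each other. In these bulk samples, a different share of cells in a phase of the cycle and a different amount of mRNA per cell cannot be told apart. The estimate was 1.36-fold, or 0.45 on the log2 scale (SE 0.15, 95% interval 0.13 to 0.76, adjusted p = 0.195). CDK1 footprints at 72 h were at 312 and 261 CPM with Cas9 and at 306 and 267 CPM with dCas9, so that each nuclease had 1 high and 1 low library. Their log2 change was -0.01, with an interval of -0.18 to 0.17.

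CCNB1 (chr5:69167135-69178245) encodes cyclin B1, the main partner of CDK1. Its mRNA at 72 h was at 487 and 476 CPM with Cas9 and at 381 and 429 CPM with dCas9, groups that did not overlap. The log2 change was 0.25 (SE 0.11, interval -0.00 to 0.50, adjusted p = 0.340). CCNB1 footprints were at 461 and 410 CPM with Cas9 and 451 and 446 CPM with dCas9, and the Cas9 libraries enclosed the dCas9 ones. The footprint change was -0.05 (interval -0.19 to 0.10). CCNB2 (chr15:59105126-59125045), the second B-type cyclin, was at 126 and 135 CPM of mRNA with Cas9 and 114 and 123 CPM with dCas9, a difference of 0.14 (SE 0.12, interval -0.13 to 0.41). CCNB2 footprints at 72 h were at 114 and 107 CPM with Cas9 and at 113 and 105 CPM with dCas9, with a log2 change of 0.01 (interval -0.19 to 0.21).

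At 36 h the same 3 genes showed no common direction. CDK1 mRNA was at 127, 152 and 149 CPM with Cas9 and 129 and 115 CPM with dCas9, higher in 5 of 6 pairs, with a log2 change of 0.23 (SE 0.10, adjusted p = 0.999). CCNB1 mRNA was at 338, 348 and 352 CPM with Cas9 and at 363 and 376 CPM with dCas9. All 3 Cas9 values lay below both dCas9 values, by 0.10 on the log2 scale (interval -0.28 to 0.09). CCNB2 mRNA overlapped, at 104, 109 and 129 CPM with Cas9 and 125 and 122 CPM with dCas9. In footprints at 36 h, where depth was low, CDK1 was at 184 and 274 CPM with Cas9 and 310 and 214 CPM with dCas9, and CCNB1 at 514 and 419 against 472 and 410 CPM. CCNB2 footprints were at 86.0 and 142 CPM with Cas9, on both sides of the dCas9 libraries at 98.1 and 105 CPM. The interval of the footprint change was -0.70 to 0.29 for CDK1, -0.30 to 0.44 for CCNB1 and -0.43 to 0.81 for CCNB2.

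CCNA2 (chr4:121816444-121823883) encodes cyclin A2, needed for DNA replication and for entry into mitosis. At 72 h its mRNA was at 212 and 205 CPM with Cas9 and 158 and 187 CPM with dCas9, again without overlap. The log2 change was 0.28 (SE 0.13, interval -0.00 to 0.55, adjusted p = 0.337). CCNA2 footprints at that time were at 214 and 194 CPM with Cas9 and at 186 and 218 CPM with dCas9, a log2 change of 0.01 (interval -0.17 to 0.19). At 36 h the pattern was the other way round. CCNA2 mRNA overlapped, at 120, 136 and 138 CPM with Cas9 and 124 and 136 CPM with dCas9, whereas its footprints were at 289 and 199 CPM with Cas9 and 193 and 170 CPM with dCas9. The footprint change at 36 h was 0.41 (SE 0.23, interval -0.08 to 0.89, adjusted p = 0.999). Among all tested genes, 15.9% lay wholly higher with Cas9 in those 4 footprint libraries.

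The E cyclins, which act with CDK2 at the start of S phase, were the least abundant of the 10 genes, and in footprints their estimates had the largest standard errors of the 10 at both times. CCNE2 (chr8:94879770-94896678) mRNA at 72 h was at 29.5 and 25.4 CPM with Cas9 and at 17.01 and 25.2 CPM with dCas9. The groups did not overlap, but Cas9 replicate b and dCas9 replicate b were almost level. The log2 change was 0.38 (SE 0.18, interval -0.02 to 0.78, adjusted p = 0.358). CCNE2 footprints at 72 h went the opposite way, at 20.1 and 13.7 CPM with Cas9 (64 and 81 counts) and 23.5 and 20.1 CPM with dCas9 (158 and 177 counts). Their change was -0.41 (SE 0.22, interval -0.85 to 0.03), and the higher Cas9 and the lower dCas9 library were level at 20.1 CPM. At 36 h CCNE2 footprints had 8 and 58 counts with Cas9 and 116 and 0 counts with dCas9. A count of 0 in the dCas9 library e allows up to 3 counts, or 4.51 CPM, by counting error alone, and the fitted log2 change was 0.28 with an interval of -1.71 to 2.26. CCNE2 mRNA at 36 h was at 17.6, 17.8 and 22.4 CPM with Cas9 and 18.3 and 24.5 CPM with dCas9, which overlapped.

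CCNE1 (chr19:29811991-29824312) mRNA at 72 h was at 31.0 and 32.9 CPM with Cas9 and 28.8 and 27.9 CPM with dCas9, a log2 change of 0.17 (SE 0.13, interval -0.12 to 0.46). Its footprints at 72 h were at 11.3 and 16.95 CPM with Cas9 and at 15.2 and 18.1 CPM with dCas9, which overlapped. At 36 h CCNE1 mRNA ranged from 28.9 to 35.5 CPM with Cas9 and was at 35.4 and 23.6 CPM with dCas9. CCNE1 footprints at 36 h were at 17.2 and 19.0 CPM with Cas9 and 20.2 and 19.5 CPM with dCas9, without overlap, but the interval of the change ran from -1.52 to 1.25. CDK2 (chr12:55966781-55972789), the kinase partner of cyclins E and A2, had estimates near 0 at 72 h. CDK2 mRNA at 72 h was at 67.8 and 71.4 CPM with Cas9 and 66.98 and 63.9 CPM with dCas9, which gave 0.09 on the log2 scale (interval -0.18 to 0.36). CDK2 footprints at 72 h were at 94.9 and 84.3 CPM with Cas9 and 85.9 and 97.1 CPM with dCas9, and their change was -0.04 (interval -0.26 to 0.17). At 36 h CDK2 mRNA was at 65.9 to 73.2 CPM with Cas9 and 69.3 and 70.3 CPM with dCas9, and its footprints at 74.1 and 109 against 101 and 114 CPM.

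The D-type cyclins, which couple growth signals to CDK4, did not share the direction of the later cyclins. CCND1 (chr11:69641156-69654474) mRNA at 72 h was at 58.1 and 68.4 CPM with Cas9 and at 82.6 and 73.6 CPM with dCas9. It was the only one of the 10 genes whose mRNA lay wholly lower with Cas9 at that time, a position that 25.2% of all tested genes shared. The log2 change was -0.30 (SE 0.14, interval -0.60 to -0.01, adjusted p = 0.331). CCND1 footprints at 72 h were at 111 and 145 CPM with Cas9, on both sides of the dCas9 libraries at 133 and 131 CPM, and changed by -0.03 (interval -0.23 to 0.18). At 36 h CCND1 mRNA was instead wholly higher with Cas9, at 86.5, 85.7 and 85.5 CPM against 83.4 and 74.5 CPM, with a log2 change of 0.12 (SE 0.12, interval -0.10 to 0.35). Among all tested genes 8.60% lay wholly higher there. CCND1 footprints at 36 h were at 198 and 131 CPM with Cas9 and 130 and 134 CPM with dCas9, where 1 of the 2 Cas9 libraries stood high.

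CCND3 (chr6:41934934-42050357) encodes the second D-type cyclin tested. Its footprints at 72 h were at 28.9 and 35.1 CPM with Cas9 (92 and 207 counts) and at 39.8 and 42.6 CPM with dCas9 (267 and 375 counts), without overlap. The log2 change was -0.34 (SE 0.15, interval -0.65 to -0.04, adjusted p = 1.000). CCND3 mRNA at 72 h overlapped, at 23.3 and 19.4 CPM with Cas9 and 24.3 and 20.5 CPM with dCas9. At 36 h CCND3 mRNA was wholly lower with Cas9, at 23.2, 24.2 and 23.5 CPM against 29.6 and 28.6 CPM, a log2 change of -0.30 (SE 0.17, interval -0.64 to 0.04). Its footprints at 36 h were at 25.8 and 59.3 CPM with Cas9 and 55.9 and 49.6 CPM with dCas9, and the low Cas9 value rested on 24 counts. CDK4 (chr12:57747727-57756013), the kinase of the D-type cyclins, was at 238 and 229 CPM of mRNA with Cas9 at 72 h and at 238 and 216 CPM with dCas9, a change of 0.04 (interval -0.22 to 0.30). CDK4 footprints at 72 h were at 157 and 163 CPM with Cas9 and at 183 and 167 CPM with dCas9. They did not overlap, and the log2 change was -0.12 (interval -0.30 to 0.06). At 36 h CDK4 mRNA was at 249.3 to 261 CPM with Cas9 and 253 and 290 CPM with dCas9, and its footprints at 193 and 173 against 183 and 176 CPM.

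**Figure D2:**
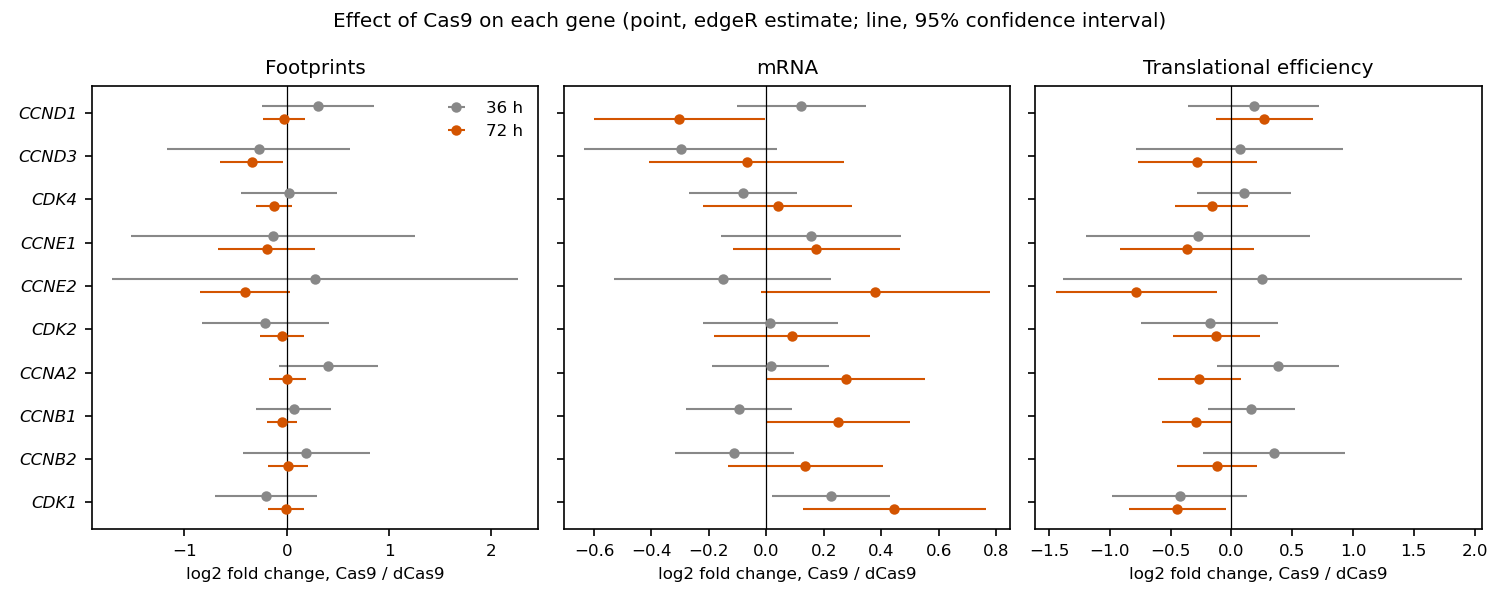
Log2 fold change of Cas9 over dCas9 (x axis) for each of the 10 genes in footprints, mRNA and translational efficiency, at 36 h (grey) and 72 h (orange). Points are edgeR estimates and lines 95% confidence intervals; in mRNA at 72 h 8 of 10 points lie above 0, and in translational efficiency at 72 h 9 of 10 lie below 0.

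Across the 10 genes, mRNA at 72 h lay above 0 for 8 of 10 (all tested genes 53.1%), with a median log2 change of 0.15 against 0.02 for all tested genes. The groups did not overlap and Cas9 was higher for 7 of the 10 (CCNA2, CCNB1, CCNB2, CCNE1, CCNE2, CDK1 and CDK2, all tested genes 24.4%), and Cas9 was lower for 1 (CCND1, 25.2%). In footprints at 72 h, 2 of 10 lay above 0 (all tested genes 50.5%), and the median was -0.04 against 0.00. There 3 of 10 were wholly lower with Cas9 (CCND3, CCNE2 and CDK4, all tested genes 15.9%) and 0 were wholly higher (15.8%). At 36 h, 6 of 10 footprint changes (all tested genes 51.2%) and 5 of 10 mRNA changes (50.5%) lay above 0. In footprints at 36 h 1 gene was wholly higher (CCNA2, 15.9%) and 1 wholly lower (CCNE1, all tested genes 14.6%). In mRNA at 36 h 1 gene was wholly higher (CCND1, all tested genes 8.60%) and 2 were wholly lower (CCNB1 and CCND3, all tested genes 8.29%).

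The mRNA values at 72 h turned on single libraries. The 2 dCas9 mRNA libraries at that time differed from each other in CDK1, CCNA2, CCNB1 and CCNE2. In these genes replicate b lay nearer to the Cas9 libraries. The difference between the 2 dCas9 libraries was not limited to the members. Over all 10896 tested genes, the chi-square per degree of freedom between their counts was 46.2. That was the highest value of any pair of replicates, the Cas9 mRNA libraries at 72 h included. Without dCas9 mRNA replicate b, 5 of the 10 genes passed the test, in a fit that called 26.0% of all tested genes (2828) in place of 2.69%. CDK1 was then higher with Cas9 by 0.64 on the log2 scale (adjusted p = 0.0228), CCNE2 by 0.70 (adjusted p = 0.0248), CCNA2 by 0.40 (adjusted p = 0.0358) and CCNB1 by 0.34 (adjusted p = 0.0501), and CCND1 was lower, at -0.38 (adjusted p = 0.0688). Without dCas9 mRNA replicate a none of them passed, and CDK1 stood at 0.27 (adjusted p = 0.277), CCNE2 at 0.13, CCNA2 at 0.16, CCNB1 at 0.17 and CCND1 at -0.22. None passed when a Cas9 mRNA library was left out, and CDK1 was then at 0.32 or 0.55. A fit that leaves 1 library in a group assumes that this library varies like those of the other group.

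Translational efficiency at 72 h was below 0 for 9 of the 10 genes (all tested genes 49.9%), with a median log2 change of -0.27 against 0.00. CCND1 was the exception at 0.27 (SE 0.19, interval -0.13 to 0.67). The lowest value was that of CCNE2, at -0.78 (SE 0.31, interval -1.44 to -0.12, adjusted p = 0.360). CDK1 followed at -0.45 (SE 0.19, interval -0.84 to -0.05, adjusted p = 0.384) and CCNB1 at -0.29 (SE 0.13, interval -0.57 to -0.01, adjusted p = 0.432). CCNB1 and CCNE2 were lower in 16 of 16 combinations of libraries, as were 11.5% of all tested genes, and no member was higher in all of them (15.4%). Without dCas9 mRNA replicate b, CDK1 (-0.59, adjusted p = 0.0384) and CCNE2 (-1.05, adjusted p = 0.0361) passed the threshold, in a fit that called 9.77% of all tested genes (1065) in place of 0.716%. The mRNA change is part of this ratio. At 36 h, 7 of 10 values were above 0 (all tested genes 51.1%), and the interval of every member included 0. No member was higher or lower in all 24 combinations at 36 h, as 7.31% and 7.59% of all tested genes were.

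Footprints relative to mRNA, both as CPM, differed between the members within a group more than between the nucleases. In dCas9 cells at 72 h the ratio was 1.84 for CCND3, 1.69 for CCND1, 1.63 for CDK1, 0.771 for CDK4 and 0.587 for CCNE1, against a median of 0.869 over all tested genes. With Cas9 at 72 h CDK1 was at 1.19, CCND1 at 2.02 and CCNE1 at 0.442. CCNE1 had the lowest ratio of the 10 genes in 3 of the 4 groups, and CCNE2 had it with dCas9 at 36 h, where 1 library had no CCNE2 count.

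The effect of Cas9 on mRNA was compared between the time points for all 10 genes, and none passed the test (edgeR, all tested genes 0.613% called). The signed difference, 72 h minus 36 h, was above 0 for 9 of the 10 genes (all tested genes 49.1%). Its median was 0.21 on the log2 scale against -0.01 for all tested genes. A negative effect that shrank counts here too, as for CCND3 (-0.30 at 36 h and -0.07 at 72 h). CCNE2 had the highest difference, 0.52 (SE 0.29, adjusted p = 0.498), and CCND1 the only negative one. For footprints 0 of the 10 passed as well (all tested genes 0%, 287 genes at an unadjusted p under 0.05 and 0 by DESeq2). There 8 of 10 differences were below 0, while 49.1% of all tested genes had a difference above 0.

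The change in mRNA at 72 h varied with coding GC content. Over all tested genes the rank correlation between the log2 change and GC content was -0.416 at 72 h and -0.256 at 36 h (a description across genes, which are not independent). Among the members, CDK1 (38.8% GC) and CCNE2 (39.0%) had the highest estimates at 72 h, and CCND1 (61.2%) and CCND3 (63.1%) the lowest. After the dependence on GC was removed from each library, CDK1 was at 0.19 (adjusted p = 0.110), CCNE2 at 0.15, CCNB1 at 0.16, CCNB2 at 0.02 and CCND1 at -0.22 (adjusted p = 0.112). CCNA2 was then at 0.22 and passed the test (adjusted p = 0.0622). That fit called 2389 of 10856 tested genes, in place of 293 of 10896. The median of the 10 genes moved from 0.15 to 0.14, and 8 of the 10 values moved closer to 0. The part of GC content in these results was not tested further.

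**Figure D3:**
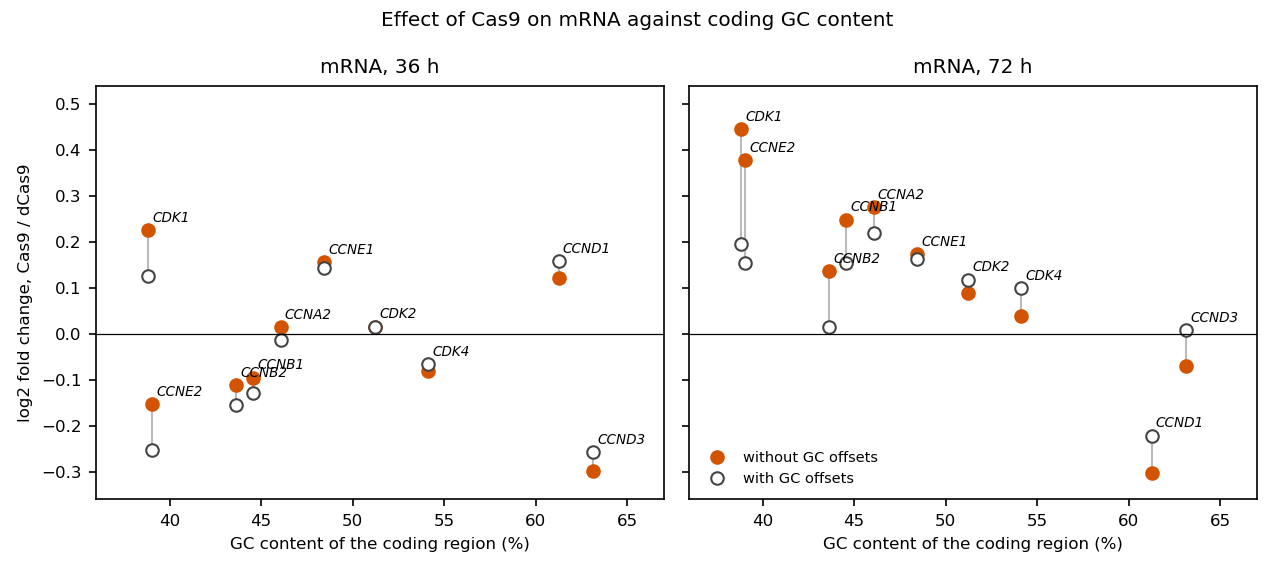
Log2 fold change of mRNA, Cas9 over dCas9 (y axis), against the GC content of the coding region in percent (x axis) for the 10 genes at 36 h and 72 h. Filled points are estimates without and open points with GC offsets for each library, joined by a line per gene; at 72 h the offsets bring CDK1 from 0.45 to 0.19 and CCND1 from -0.30 to -0.22.

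Other genes of the cell cycle, 123 in 7 lists, were read beside the members. At 36 h, 0 of the 115 tested passed in footprints, mRNA or translational efficiency, and at 72 h 0 of 122 passed in footprints. In mRNA at 72 h 5 of 122 fell and 0 rose, where 2.66% of all tested genes fell (290) and 3 genes rose. Of the 30 regulators and genes of G2 and mitosis, 4 fell, with a median of 0.07 for the list against 0.02 for all tested genes. MKI67, which encodes the proliferation marker Ki-67, fell by 0.67 (log2 scale, SE 0.12; adjusted p = 0.0254), from 707 and 805 CPM with dCas9 to 452 and 497 CPM with Cas9. MYBL2, a transcription factor of mitotic genes, fell by 0.52 (adjusted p = 0.0636), and PLK1, a kinase of mitotic entry, fell by 0.52 (adjusted p = 0.0726). Outside the rule for named genes, and chosen after their values were seen, were INCENP of the chromosomal passenger complex, which fell by 0.50 (adjusted p = 0.0868), and TYMS, thymidylate synthase, which fell by 0.60 (adjusted p = 0.0767) as the 1 called gene of 13 S phase genes.

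Every estimate stayed below 0 when 1 mRNA library was left out, and calls were lost only in fits without a Cas9 library. Leaving out a dCas9 library gave estimates from -0.76 (MKI67) to -0.43 (INCENP). Without Cas9 mRNA replicate a, none of MKI67, MYBL2, PLK1, INCENP and TYMS passed (MKI67 at -0.60, adjusted p = 0.541). Without Cas9 mRNA replicate b MKI67 passed (-0.75, adjusted p = 0.0138). MYBL2 (-0.61), PLK1 (-0.58), INCENP (-0.57) and TYMS (-0.69) did not, with estimates farther from 0 than in the fit of all 4 libraries and standard errors of 0.21 to 0.24. Their footprints at 72 h did not follow, at 580 and 604 CPM with Cas9 against 604 and 602 CPM with dCas9 for MKI67 and at 314 and 306 against 323 and 309 CPM for PLK1. Translational efficiency of MKI67 rose by 0.65 (SE 0.13, adjusted p = 0.0410), but it did not pass in 5 of 8 fits that each left out 1 library (0.59 to 0.74, largest adjusted p = 0.383).

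None of the 25 other cyclins and CDKs, 7 CDK inhibitors, 9 enzymes that act on CDKs, 13 RB and E2F family genes and 25 genes of cyclin degradation tested at 72 h passed in mRNA. Their medians were -0.01, 0.15, 0.18, 0.03 and 0.06, beside 0.02 for all tested genes. CDKN1A was low throughout. Its mRNA at 36 h was at 4.50, 6.96 and 5.78 CPM with Cas9 and 5.39 and 1.61 CPM with dCas9, higher in 5 of 6 pairs, with a log2 change of 0.73 (SE 0.37, interval -0.00 to 1.45, adjusted p = 0.999). The estimate rested on dCas9 replicate e: without it the change was 0.09 (adjusted p = 1.000), and without dCas9 replicate d it was 1.83 (adjusted p = 0.0246), in a fit that called 2.42% of all tested genes. CDKN1A footprints at 36 h were at 24.7 and 16.9 CPM with Cas9 (23 and 42 counts) and at 9.89 and 15.04 CPM with dCas9 (49 and 10 counts), with an interval of -0.83 to 2.38. At 72 h CDKN1A mRNA overlapped between the groups, at 3.96 and 3.71 CPM with Cas9 and 3.95 and 2.87 CPM with dCas9. The inhibitor CDKN1B, the phosphatase CDC25A, which activates CDKs, and the kinase WEE1, which inhibits them, did not pass in any of 8 comparisons, with smallest adjusted p-values of 0.635, 0.695 and 0.382.

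**Figure D4:**
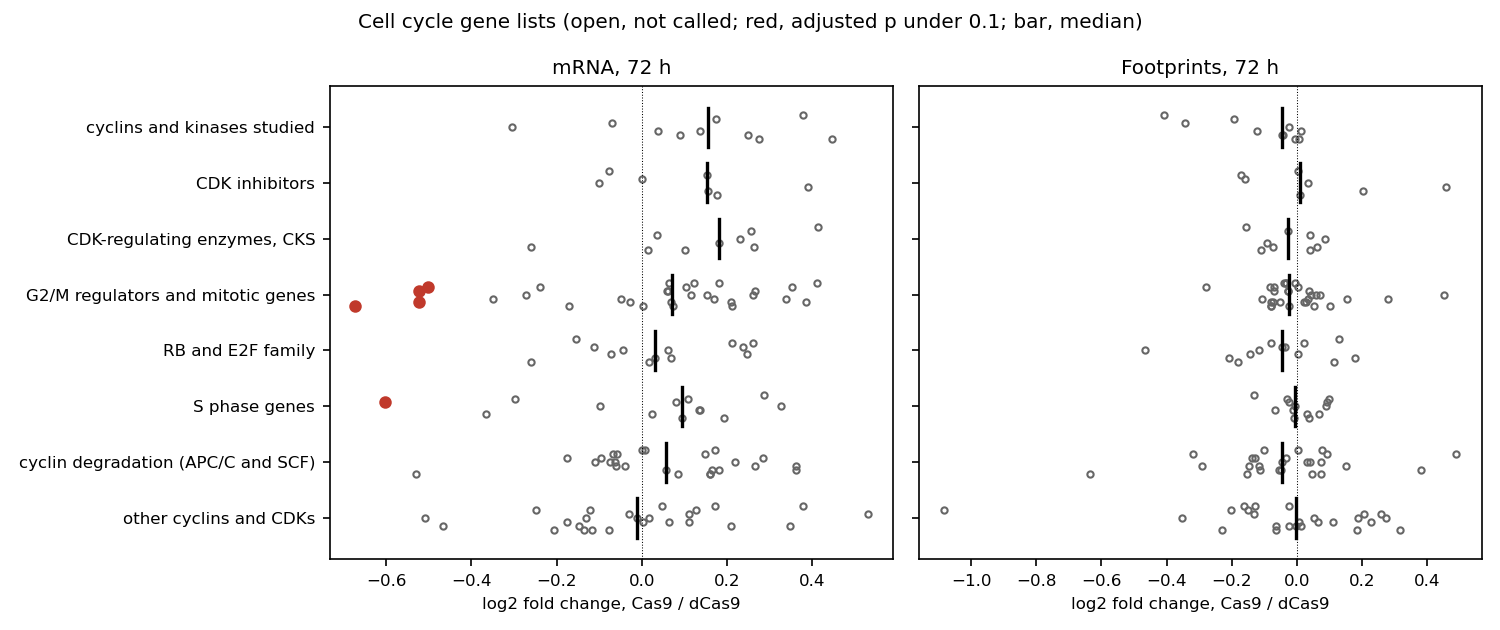
Log2 fold change of Cas9 over dCas9 at 72 h (x axis) for the members (top row) and for 7 other cell cycle gene lists (rows), in mRNA (left) and footprints (right). Open points are genes that did not pass the test, red points genes with an adjusted p under 0.1 and bars list medians; the 5 red points in mRNA are all below 0 and there are none in footprints.

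Profiles over the 17 libraries, centred and scaled within each time point and library type, were compared with the mean profile of CCNA2, CCNB1, CCNB2 and CDK1. The most similar of 8966 other genes were SPART (r = 0.913), TARS1 (0.911), RPF2 (0.903), GDI2 (0.900) and EIF2AK3 (0.898). CCNE2 was the most similar other member (r = 0.779) and CCND1 the least (r = -0.577). For CCND1 the nearest profiles were those of ZNF462 (r = 0.924), RAB6B (0.921), SRF (0.919), SEMA4D (0.908) and POLR1A (0.894). These correlations are descriptions over libraries that share their depth and GC dependence.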

How the data were processed

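The authors aligned ribosome footprint and mRNA reads to the human genome (GRCh38), with HISAT2 at 36 h (the labels name version 2.1.0) and with TopHat at 72 h, and deposited whole-number read counts per transcript, unnormalised, with 1 file for each library. Transcripts were matched by identifier to GENCODE, 25338 of 26679 at 36 h and 94878 of 98334 at 72 h; the unmatched ones held 3.74% and 4.22% of the counts. Positions are from GENCODE release 44. Each gene was represented at a time point by its most counted transcript. Total counts per library are given with the results, and confidence intervals there come from the fits. The footprints of 1 Cas9 replicate at 36 h were not analysed here.

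Genes averaging 20 or more counts in each library type were tested in R 4.3.3 with edgeR 4.0.16 (TMM scaling, quasi-likelihood fits). Each time point and library type was fitted separately. Translational efficiency was the interaction of nuclease and library type in a fit over both types, and the time difference was the interaction of nuclease and time. P-values were adjusted over all tested genes by the Benjamini-Hochberg method, and a gene was called at an adjusted p under 0.1. Levels are CPM over the tested genes, scaled by TMM, and CPM per kb of counted coding part. Log2 CPM, used to compare pairs of libraries, took a prior count of 2. Tested on simulated data with 200 changed genes at 1.5 on the log2 scale, the fits recovered 44.0% in footprints at 36 h, 100% in mRNA at 36 h, 94.5% in footprints at 72 h and 100% in mRNA at 72 h. The member estimates were smaller (0.45 for CDK1 mRNA at 72 h), and changes of that size were not simulated. These shares therefore do not tell how often such changes would be called. For translational efficiency at 36 h the simulated data gave 184 false calls, so adjusted p-values there are too small. A limma 3.58.1 fit with a weight for each library type was therefore added after the data were seen, as was a crossed replicate block. On the same simulated data the limma fit still made 76 false calls. It recovered 50.8% of 388 changed genes, against 66.0% with edgeR, so it lessened the false calls without removing them. Alternatives tried were DESeq2 1.42.0, median-ratio factors, other count filters, the transcript choice of the other time point, offsets for coding GC content (lowess span 0.3), 1 fit over both library types, replicate blocks and leaving out each library.

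The 10 members and the other gene lists were chosen with earlier results of these data known. The genes named were the 10 members, the fixed genes CDKN1A, CDKN1B, CDC25A and WEE1, for each comparison up to 3 listed genes that rose and 3 that fell with the smallest adjusted p and the same direction in every pair of libraries, and the 5 nearest profiles. Figures were drawn in Python 3.11.15 with matplotlib 3.10.9.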

Additional observations from a re-analysis of the deposited data

Results flagged for a closer look

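The effect of Cas9 on CCNB1 mRNA had opposite signs at the time points. Cas9 values were higher in 0 of 6 pairs of libraries at 36 h (8.29% of all tested genes) and in 4 of 4 pairs at 72 h (24.4%). The share of genes with both was not counted. The difference between the effects was 0.33 on the log2 scale (edgeR, SE 0.13, adjusted p = 0.322). It did not pass the test.

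CCND1 mRNA showed the reverse order. Cas9 values were higher in 6 of 6 pairs at 36 h (8.60% of all tested genes) and in 0 of 4 pairs at 72 h (25.2%). The share of genes with both was again not counted. The difference was -0.43 (edgeR, SE 0.16, adjusted p = 0.306), which did not pass either.

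The effect on MKI67 mRNA differed between the time points by the test itself, with a difference of -0.75 (SE 0.17, adjusted p = 0.0757). Whether this difference held under other settings or with 1 library left out was not examined. MKI67 mRNA overlapped between the groups at 36 h, at 461, 431 and 542 CPM with Cas9 and 487 and 425 CPM with dCas9. Guide synthesis and read alignment changed with time, and their part in these differences was not tested.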

How the results depend on the processing

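No member was called in footprints or in mRNA at 36 h under any setting tried; in mRNA at 72 h a member was called in 6 of 14 settings, and for translational efficiency in 1 of 17 at 36 h (CCNE2, where the remaining dCas9 library had 0 counts) and 1 of 18 at 72 h. Of the 6 settings for mRNA at 72 h, those that kept all libraries called 614 to 3076 of all tested genes, in place of 293. The number of genes called in mRNA at 36 h was 2 as reported and 1 with filterByExpr. It was 0 with DESeq2, median-ratio factors, the transcripts of 72 h, GC offsets or 1 fit over both library types. For translational efficiency at 36 h DESeq2 called 1 in place of 0. In footprints at 72 h, 4 became 7 with GC offsets and 0 in 1 fit over both types. In mRNA at 72 h, 293 became 185 with median-ratio factors (where INCENP and TYMS had adjusted p = 0.113 and 0.111), 493 without a count minimum, 614 in 1 fit over both types (CDK1 adjusted p = 0.0786) and 2389 with GC offsets, which split 853 higher and 1536 lower against 3 and 290. For translational efficiency at 72 h, 78 became 221 with DESeq2, 170 with median-ratio factors, 260 without a count minimum, 580 with GC offsets and 136 with limma. The mRNA time difference went from 55 to 213 with DESeq2. GC offsets reversed CCNA2 mRNA at 36 h (-0.014), CCND3 translational efficiency at 36 h (-0.060), CDK1 and CDKN1A footprints at 72 h (0.0040 and -0.013), CCND3 mRNA at 72 h (0.0073) and CCNB2 translational efficiency at 72 h (0.0070). DESeq2 reversed CDKN1A footprints at 72 h (-0.0016) and no count minimum CCNA2 footprints (-0.0012). The cause was not tested.

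Same-lettered libraries did not deviate together (r = 0.012 in footprints and -0.139 in mRNA at 72 h, 0.062 and 0.010 for the lysates at 36 h). Each r compares a single pair of replicate differences that hold counting noise, so a low value cannot exclude pairing. The authors divided lysates between footprint and mRNA libraries. The main fits took letters only as names. With a replicate block, 7 genes were called in footprints and 706 in mRNA at 72 h, of 10896 tested. CDK1 mRNA at 72 h was then 0.45 (adjusted p = 0.0550) and CCND3 translational efficiency at 36 h was -0.049. The block with GC offsets called 7 genes in footprints, 3076 in mRNA and 741 for translational efficiency, of 10856 tested at 72 h. In mRNA CDK1 was then 0.20 (adjusted p = 0.0451), CCNA2 0.22 (adjusted p = 0.0296), CCNB1 0.16 (adjusted p = 0.0823), CCND1 -0.23 (adjusted p = 0.0454) and CCND3 0.0030. CDK1 footprints were 0.0070 and CCNB2 translational efficiency 0.0084. A crossed block, chosen after seeing the data, called 829 genes in mRNA and 249 for translational efficiency, of 10896 tested. CDK1 mRNA was then at 0.45 (adjusted p = 0.0383).

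Leaving out 1 library gave 0 to 72 calls in footprints, 0 to 218 in mRNA and 0 to 474 for translational efficiency at 36 h, 1 to 41, 5 to 2828 and 1 to 1065 at 72 h, and 0 to 40 and 1 to 269 for the time differences in footprints and mRNA. Of log2 changes that reversed or crossed the threshold when 1 library was left out, those of footprints at 36 h ran as follows, CCNB1 from -0.087 to 0.21, CCNB2 from -0.24 to 0.48, CCND1 from -0.013 to 0.59, CCND3 from -1.04 to 0.15, CCNE2 from -0.64 to 7.50, CDK1 from -0.53 to 0.11, CDK2 from -0.53 to 0.012 and CDK4 from -0.064 to 0.11. In mRNA at 36 h the ranges were CCNA2 from -0.051 to 0.081, CCNE1 from -0.11 to 0.48, CCNE2 from -0.35 to 0.071, CDK2 from -0.019 to 0.061, CDK4 from -0.17 to 0.017 and CDKN1A from 0.085 to 1.83. In translational efficiency at 36 h the ranges were CCNB2 from -0.095 to 0.61, CCND1 from -0.12 to 0.49, CCND3 from -0.74 to 0.44, CCNE2 from -0.84 to 11.67, CDK2 from -0.51 to 0.030 and CDK4 from -0.0041 to 0.20. In footprints at 72 h the ranges were CCNA2 from -0.10 to 0.13, CCNB1 from -0.13 to 0.041, CCNB2 from -0.040 to 0.063, CCND1 from -0.25 to 0.13, CCNE1 from -0.56 to 0.019, CDK1 from -0.13 to 0.12, CDK2 from -0.12 to 0.052 and CDKN1A from -0.38 to 0.48. In mRNA at 72 h the ranges were CCNA2 from 0.16 to 0.40, CCNB1 from 0.17 to 0.34, CCND1 from -0.43 to -0.19, CCND3 from -0.21 to 0.057, CCNE2 from 0.13 to 0.70, CDK1 from 0.27 to 0.64, CDK4 from -0.025 to 0.11, CDKN1A from -0.038 to 0.42, INCENP from -0.57 to -0.43, MKI67 from -0.76 to -0.57, MYBL2 from -0.61 to -0.44, PLK1 from -0.59 to -0.44 and TYMS from -0.75 to -0.44. In translational efficiency at 72 h the ranges were CCNE2 from -1.05 to -0.49, CDK1 from -0.59 to -0.29 and MKI67 from 0.59 to 0.74. CCNE2 values above 7 rest on a dCas9 library with 0 counts. Footprint depth at 36 h, at least 678503 counts, limits the E cyclins most.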
